A study of Mus musculus with 12 samples.

Results

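Chemokines are small secreted proteins that steer the migration of leukocytes, and their receptors are G protein coupled receptors on the cells that respond. Genes of the mouse chemokine system were read in hearts as all genes whose symbol starts with Ccl, Ccr, Cxcl or Cxcr followed by a digit, together with Cx3cl1, Cx3cr1, Xcl1, Xcr1 and the atypical receptors Ackr1 to Ackr4. A member had to have a probe set with no other gene symbol, and its brightest such probe set was used. By this rule 56 genes were found among 27533 genes tested, namely 34 ligands, 17 signalling receptors, 4 atypical receptors and the pseudogene Ccl19-ps1. A further 7 family symbols (Ccl19, Ccl19-ps3, Ccl21a, Ccl21b, Ccl21c, Ccl21d and Ccl27b) were read only on probe sets that carry other symbols too, and Ccr6, Ccl16-ps and Ccl19-ps2 were not analysed here.

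Hearts came from male mice of the C57BL/6J strain, 10 weeks old, and were taken 2 weeks after surgery. Total RNA of each heart was hybridised to 1 Clariom D array. The 4 groups were ADAM12 knockout hearts after transverse aortic constriction (TAC), ADAM12 knockout hearts after sham operation, wild type hearts after TAC and wild type hearts after sham operation, with 3 biological replicates each. In TAC a ligature around the aortic arch makes the left ventricle pump against a higher pressure, and ADAM12 is a membrane-bound metalloprotease. The labels give neither the knockout allele nor whether the mice of a group were littermates, and the sample is whole heart, so that all its cell types contribute to each value.

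Under pressure load, chemokines made by resident cells of the heart are known to draw monocytes and other leukocytes into the tissue. The receptor CCR2 marks monocytes that come from blood and binds CCL2, CCL7 and CCL12, while CX3CR1 marks monocytes and resident macrophages and binds the membrane-tethered ligand CX3CL1. CXCL12 acts through CXCR4, and CXCL16 is both a scavenger receptor and the ligand of CXCR6. Atypical receptors bind chemokines without the usual G protein signal and clear or store them.

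Values are log2 signals, so a difference of 1 is a doubling of signal. Medians of all probe sets other than controls lay between 4.93 and 5.10 on the 12 arrays, and medians of the 23 background probe sets graded by GC content between 2.96 and 3.17. The 5222 probe sets named as negative controls read higher, with array medians of 5.81 to 6.03 and a 95th percentile of 9.45. The mean of 37 of 56 members lay under the lowest of these medians, and that of 55, all but Cxcl12, under the 95th percentile. How much of a member's signal is background is therefore not known, and differences are differences of deposited signal. Of the 56 members, 33 had a mean signal under the median of all genes tested (5.40), among them 12 of 17 receptors and 19 of 34 ligands, so many members were dim. The Adam12 probe set, which is dim and shared with 5830403F22Rik, read 4.25 to 4.40 in the 6 knockout hearts and 4.46 to 4.80 in the 6 wild type hearts, and its genotype difference was not called after either surgery.

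In knockout hearts TAC raised a limited set of the family. It held the chemokines Ccl12, Ccl8 and Ccl7 and the membrane-tethered ligands Cxcl16 and Cx3cl1. It also held the receptors Ccr2, Ccr1, Cx3cr1 and Cxcr4 and the atypical receptor Ackr4. With the pseudogene Ccl19-ps1 this made 11 of 56 members (19.6%) called higher at an adjusted p under 0.05, where 6.97% of all genes tested were called higher. Means over all arrays of Ackr4 (4.8), Ccr1 (5.3), Ccl8 (5.3), Ccl7 (5.4) and Ccl19-ps1 (5.6) lay under the lowest negative control median (5.81). Those of the other called members lay above it, but these means include the knockout TAC arrays. In knockout sham hearts alone the means of Ccr2 (5.29) and Ccl12 (5.745) lay under it as well. None of the 56 was called lower, where 5.57% of all genes were. The 3 TAC arrays lay wholly above the 3 sham arrays for 15 members (26.8%), against 15.3% of all genes, and wholly below them for 3 members (5.36%), against 16.8% of all genes. The median difference over the 56 members was 0.10, and over all genes it was -0.03.

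**Figure D1:**
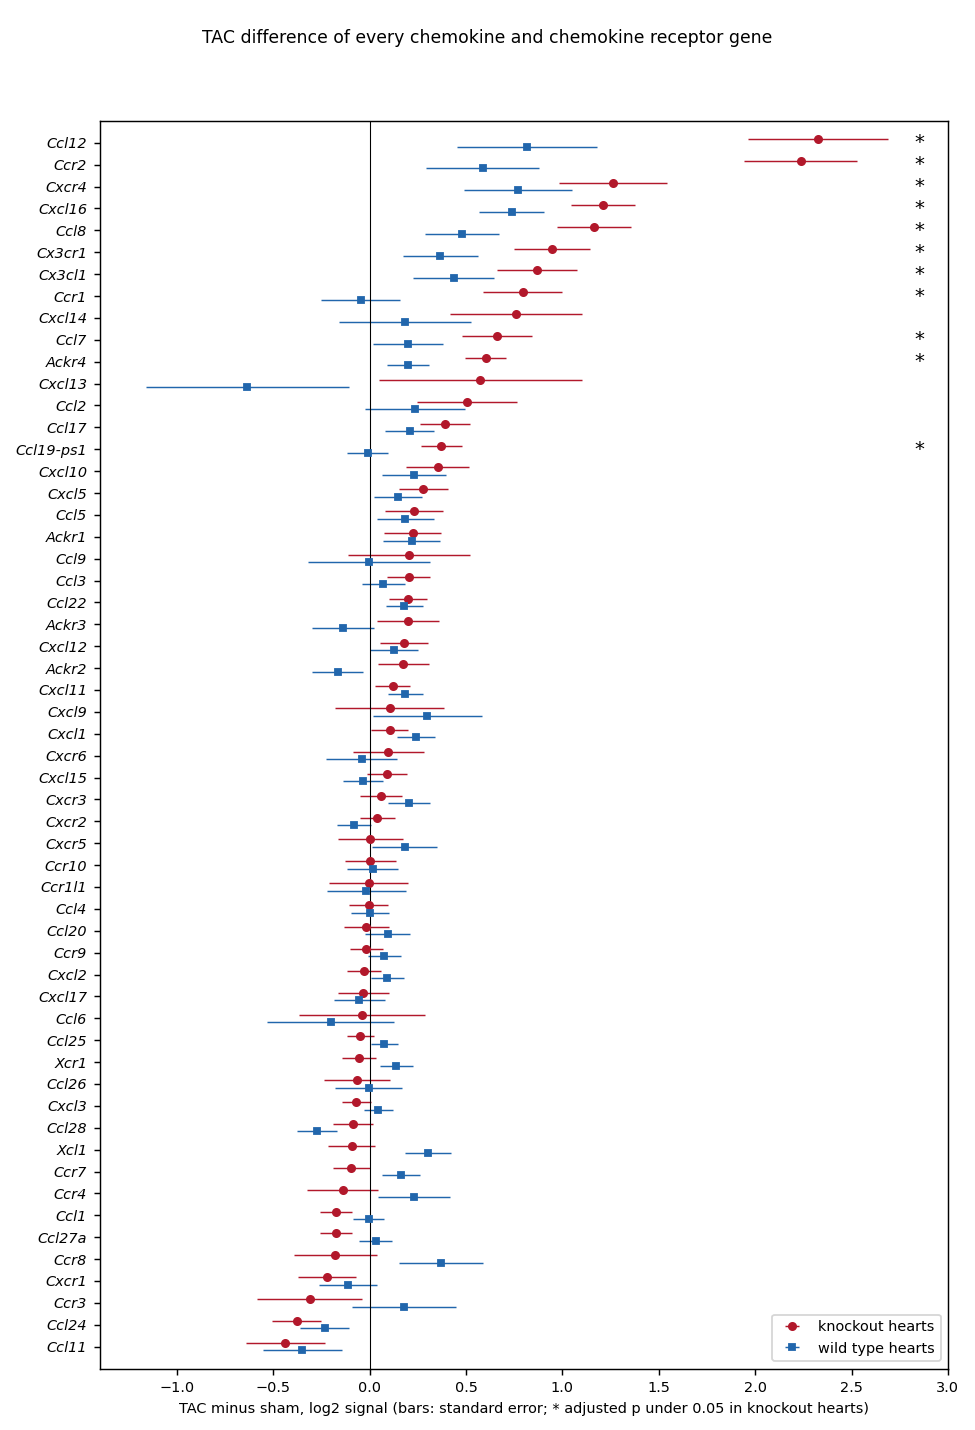
TAC minus sham in log2 signal for each of the 56 members, with knockout hearts as red circles and wild type hearts as blue squares; horizontal bars are limma standard errors and asterisks mark the 11 members called in knockout hearts. The knockout differences run from 2.33 for Ccl12 to -0.44 for Ccl11, and no wild type difference was called.

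Among ligands, Ccl12, which in the mouse acts on CCR2, had the largest knockout difference of the family. Ccl12 read 7.85, 8.60 and 7.76 in knockout TAC hearts, against 5.74, 6.35 and 5.14 in knockout sham hearts. The groups did not overlap, and the difference was 2.33 ± 0.36 (limma standard error), at adjusted p = 0.00176. Ccl12 read 6.36, 7.22 and 7.24 in wild type TAC hearts, against 6.70, 5.95 and 5.73 in wild type sham hearts, so that the groups overlapped. The wild type difference of 0.82 ± 0.36 was not called (adjusted p = 0.398).

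The gene of Ccl8 is the neighbour of that of Ccl12. Ccl8 read 6.39, 6.22 and 5.86 in knockout TAC hearts, against 4.98, 5.31 and 4.69 in knockout sham hearts. All knockout TAC arrays lay above all other arrays, and the difference was 1.16 ± 0.19 (adjusted p = 0.0023). Wild type hearts gave 5.0, 5.56 and 5.27 for Ccl8 after TAC, against 4.94, 4.58 and 4.85 after sham. These groups did not overlap either, yet the difference of 0.48 ± 0.19 was not called (adjusted p = 0.34).

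Ccl7, another ligand of CCR2, read 5.50, 6.35 and 5.83 in knockout TAC hearts, against 5.14, 5.14 and 5.42 in knockout sham hearts. It rose by 0.66 ± 0.18 (adjusted p = 0.0345), with its highest value in knockout TAC replicate 2. Without that array the difference was 0.43 at adjusted p = 0.099, and the call was also lost without knockout TAC replicate 3 (adjusted p = 0.0674), knockout sham replicate 1 (0.104) or knockout sham replicate 2 (0.105). Ccl2, the best known ligand of CCR2, read 5.90, 7.05 and 6.63 in knockout TAC hearts, against 6.01, 5.86 and 6.20 in knockout sham hearts. Its knockout TAC replicate 1 lay within the sham range. The difference of 0.51 ± 0.26 was not called (adjusted p = 0.272, 95% interval -0.06 to 1.07), and without that replicate it was 0.82 at adjusted p = 0.0336. Neither was called in wild type hearts, where Ccl7 differed by 0.20 ± 0.18 and Ccl2 by 0.23 ± 0.26.

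**Figure D2:**
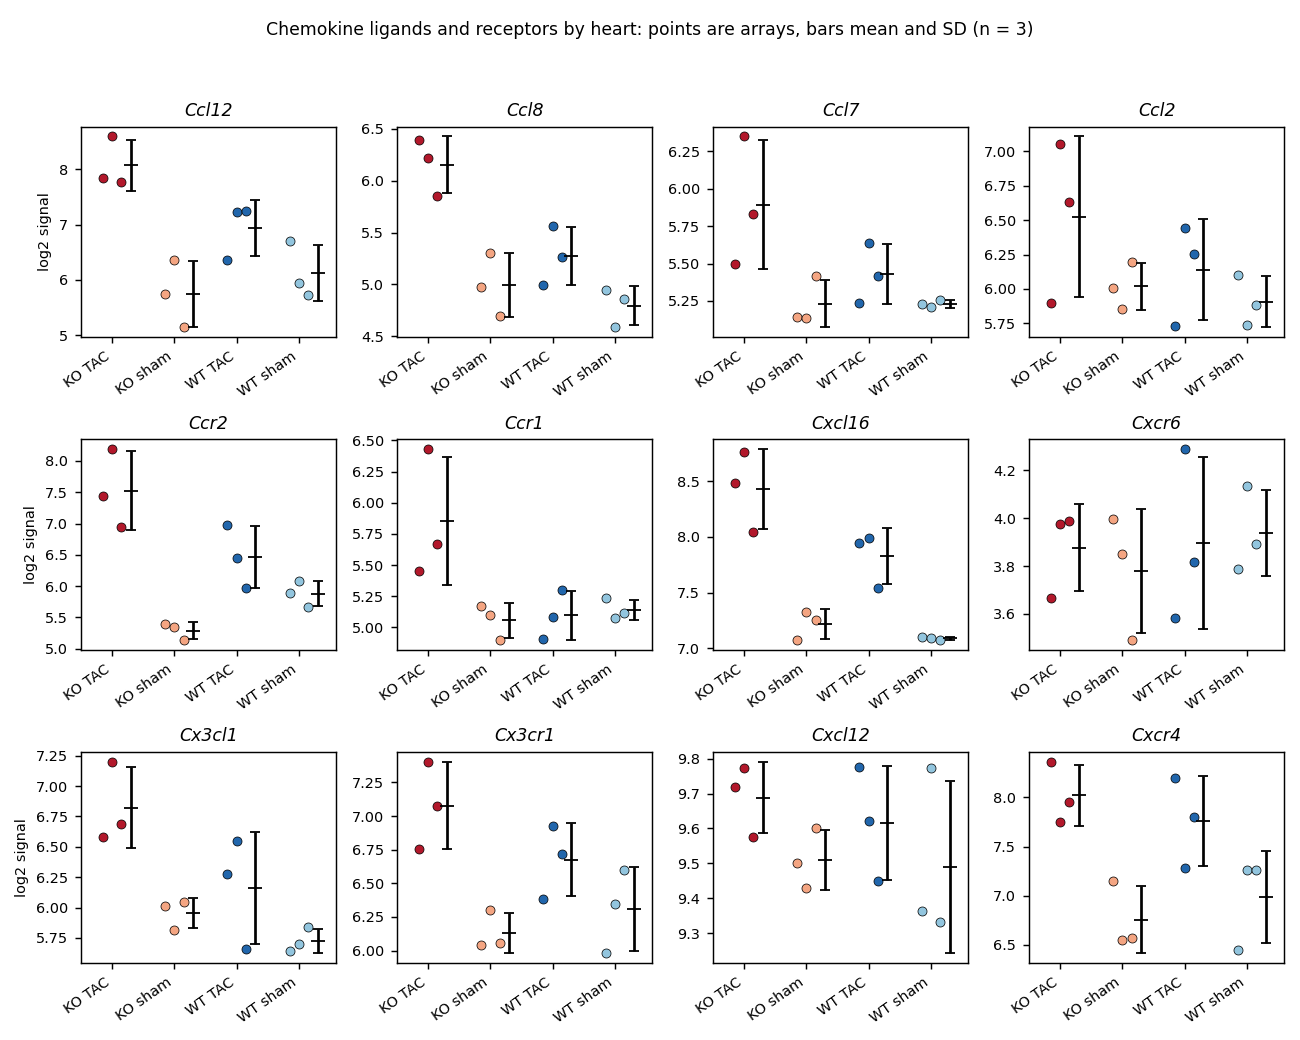
Log2 signal of 12 chemokine ligands and receptors by group, with a point for each of the 3 arrays and bars for mean and SD; each panel has its own vertical axis, which does not start at 0. For Ccl12, Ccr2, Cxcl16 and Ccl8 the 3 knockout TAC points lie above all knockout sham points, while the TAC and sham points of Cxcr6 and Cxcl12 overlap in both genotypes.

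Among receptors, Ccr2 read 7.45, 8.19 and 6.94 in knockout TAC hearts, against 5.39, 5.34 and 5.14 in knockout sham hearts. Every knockout TAC array lay above every sham array of either genotype, and Ccr2 rose by 2.24 ± 0.29 (adjusted p = 0.000736). In wild type hearts Ccr2 read 6.98, 6.45 and 5.98 after TAC, against 5.89, 6.08 and 5.67 after sham. The wild type groups overlapped, and the difference of 0.59 ± 0.29 was not called (adjusted p = 0.453).

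Ccr1, a receptor of monocytes and neutrophils that binds CCL3, CCL5 and CCL7, read 5.45, 6.43 and 5.67 in knockout TAC hearts, against 5.17, 5.10 and 4.90 in knockout sham hearts. It rose by 0.79 ± 0.21 (adjusted p = 0.0257). The highest value again came from knockout TAC replicate 2, without which the difference was 0.50 and still called (adjusted p = 0.0429). Leaving out any single knockout sham replicate ended the call, with adjusted p of 0.0508 without replicate 1, 0.0607 without replicate 2 and 0.10 without replicate 3. The wild type values of Ccr1 were 4.91, 5.08 and 5.30 after TAC, against 5.23, 5.08 and 5.12 after sham, a difference of -0.05 ± 0.21 (95% interval -0.50 to 0.40).

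The fractalkine ligand and receptor both rose in knockout hearts. Cx3cl1 read 6.58, 7.20 and 6.69 in knockout TAC hearts, against 6.01, 5.82 and 6.04 in knockout sham hearts, and rose by 0.87 ± 0.21 (adjusted p = 0.0182). That call was lost without knockout TAC replicate 2 (adjusted p = 0.0805) or knockout sham replicate 2 (0.0651). Its receptor Cx3cr1 read 6.76, 7.40 and 7.07 in knockout TAC hearts, against 6.04, 6.30 and 6.05 in knockout sham hearts, and rose by 0.95 ± 0.20 (adjusted p = 0.00834). Both differences were positive and not called in wild type hearts, at 0.44 ± 0.21 for Cx3cl1 and 0.37 ± 0.20 for Cx3cr1.

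Cxcl16 had the smallest adjusted p among ligands. It read 8.48, 8.76 and 8.04 in knockout TAC hearts, against 7.07, 7.33 and 7.25 in knockout sham hearts, and rose by 1.21 ± 0.17 (adjusted p = 0.000916). Wild type hearts gave 7.95, 7.99 and 7.54 after TAC, against 7.10, 7.09 and 7.07 after sham. The wild type groups did not overlap, and their difference of 0.74 ± 0.17 had the smallest p of any member in wild type hearts but was not called (adjusted p = 0.105). Without wild type TAC replicate 3 it was called (0.88, adjusted p = 0.0431). Its receptor Cxcr6, found on T cells, was dim, with 3.67, 3.97 and 3.99 in knockout TAC hearts, against 4.0, 3.85 and 3.49 in knockout sham hearts. The difference of 0.10 ± 0.18 had a 95% interval of -0.31 to 0.50.

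Cxcr4, a receptor of leukocytes, endothelial cells and progenitors, read 8.36, 7.74 and 7.95 in knockout TAC hearts, against 7.15, 6.55 and 6.57 in knockout sham hearts. It rose by 1.26 ± 0.28 (adjusted p = 0.012), and without knockout sham replicate 3 the call was lost (1.17, adjusted p = 0.0528). Cxcr4 read 8.19, 7.29 and 7.80 in wild type TAC hearts, against 6.45, 7.26 and 7.26 in wild type sham hearts. These groups were separated by a narrow margin, and the difference of 0.77 ± 0.28 was not called (adjusted p = 0.289). Cxcl12, its ligand, which stromal cells make, read 9.72, 9.77 and 9.57 in knockout TAC hearts, against 9.50, 9.43 and 9.60 in knockout sham hearts. The groups overlapped and the difference was 0.18 ± 0.12 (adjusted p = 0.442, 95% interval -0.09 to 0.45). Its wild type difference was 0.13 ± 0.12 (95% interval -0.15 to 0.40).

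Starts of a few of these genes are shown for the letters they hold near the transcription start. The windows, from RefSeq on GRCm38.p6, run from 250 bases before the start to 50 bases after it, so that each holds upstream sequence and the first transcribed bases, and they are written 5′ to 3′ on the strand of the gene. Of the 56 members 41 had a window, and 8 of the 10 protein-coding genes that rose did. Capitals mark matches, on either strand, to TATAAA (the TATA box), to TGANTCA (the AP-1 site), to the interferon response element (GAAA, any 2 bases, GAAA) or to the NF-kappa-B consensus. Ccl12, Ccl8 and Cxcr4 stand for genes that rose and carry TATAAA close to the start, Ccr1 for the one riser with an NF-kappa-B match, and Cxcl10 for a member that was not called although its window holds several matches.
Ccl12, chr11:82101595-82101894, plus strand: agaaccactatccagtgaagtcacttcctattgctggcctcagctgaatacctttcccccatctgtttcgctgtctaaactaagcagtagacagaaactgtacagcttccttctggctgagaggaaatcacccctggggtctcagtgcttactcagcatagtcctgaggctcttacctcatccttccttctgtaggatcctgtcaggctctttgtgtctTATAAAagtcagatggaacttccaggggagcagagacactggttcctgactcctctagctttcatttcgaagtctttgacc
Ccl8, chr11:82114935-82115234, plus strand: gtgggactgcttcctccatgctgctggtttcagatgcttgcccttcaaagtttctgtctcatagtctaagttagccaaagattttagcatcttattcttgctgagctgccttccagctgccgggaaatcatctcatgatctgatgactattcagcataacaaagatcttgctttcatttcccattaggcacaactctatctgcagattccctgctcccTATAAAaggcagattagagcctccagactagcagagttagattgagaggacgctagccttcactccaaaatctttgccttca
Cxcr4, chr1:128592250-128592549, minus strand: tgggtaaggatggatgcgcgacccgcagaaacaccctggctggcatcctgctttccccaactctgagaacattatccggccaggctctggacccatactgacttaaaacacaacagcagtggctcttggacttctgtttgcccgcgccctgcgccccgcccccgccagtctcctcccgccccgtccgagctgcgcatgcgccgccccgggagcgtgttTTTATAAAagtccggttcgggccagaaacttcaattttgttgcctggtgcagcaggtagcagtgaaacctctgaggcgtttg
Ccr1, chr9:123968643-123968942, minus strand: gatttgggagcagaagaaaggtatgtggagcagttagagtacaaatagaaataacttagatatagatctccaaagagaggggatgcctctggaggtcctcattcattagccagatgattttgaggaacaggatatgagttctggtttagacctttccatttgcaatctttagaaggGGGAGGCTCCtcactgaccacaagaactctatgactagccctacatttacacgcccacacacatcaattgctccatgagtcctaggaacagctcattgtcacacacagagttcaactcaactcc
Cxcl10, chr5:92348840-92349139, minus strand: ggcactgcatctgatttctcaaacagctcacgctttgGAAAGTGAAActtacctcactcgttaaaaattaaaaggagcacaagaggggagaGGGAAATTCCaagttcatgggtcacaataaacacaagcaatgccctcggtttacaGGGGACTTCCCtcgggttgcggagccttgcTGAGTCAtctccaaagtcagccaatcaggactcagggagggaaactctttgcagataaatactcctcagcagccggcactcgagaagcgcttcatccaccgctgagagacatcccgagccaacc

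In these windows TATAAA began 31 bases before the start in Ccl12, 32 in Ccl8 and 30 in Cxcr4, and in Cxcr4 a match on the other strand overlapped it. The NF-kappa-B match of Ccr1 began 74 bases before its start. In Cxcl10, matches to that consensus began 159, 104 and 103 bases before the start, the last 2 overlapping each other, and an AP-1 match began at 74 and an interferon response element match at 213. TATAAA was found in 14 of 44 member windows (31.8%), against 13.6% of all 32851 windows, and in the windows of 5 risers (Ackr4, Ccl12, Ccl8, Cx3cl1 and Cxcr4). The NF-kappa-B consensus was found in 11 member windows (25%), against 8.46% of all windows, and among risers in Ccr1 alone. TGANTCA was found in 8 member windows (18.2%), against 7.81% of all windows, and in none of a riser, and the interferon response element in 2 (4.55%), against 3.44%. These are matches of letters, and binding was not measured.

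Of the atypical receptors, Ackr4, which removes CCL19, CCL21 and CCL25, was called. It read 5.15, 5.09 and 5.06 in knockout TAC hearts, against 4.67, 4.30 and 4.52 in knockout sham hearts, and rose by 0.60 ± 0.11 (adjusted p = 0.00371). In wild type hearts it read 4.76, 4.87 and 5.10 after TAC, against 4.63, 4.74 and 4.77 after sham, a difference of 0.20 ± 0.11 (adjusted p = 0.494). The other 3 were not called in knockout hearts. Ackr3, which scavenges CXCL12, read 8.38, 8.15 and 8.12 in knockout TAC hearts, against 8.27, 7.65 and 8.14 in knockout sham hearts, a difference of 0.20 ± 0.16 (95% interval -0.15 to 0.55). Ackr1, the Duffy receptor of venules and red cells, read 4.08, 4.47 and 3.94 in knockout TAC hearts, against 3.93, 3.84 and 4.06 in knockout sham hearts, a difference of 0.22 ± 0.15. Ackr2, a scavenger of inflammatory CC chemokines, differed by 0.17 ± 0.13.

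**Figure D3:**
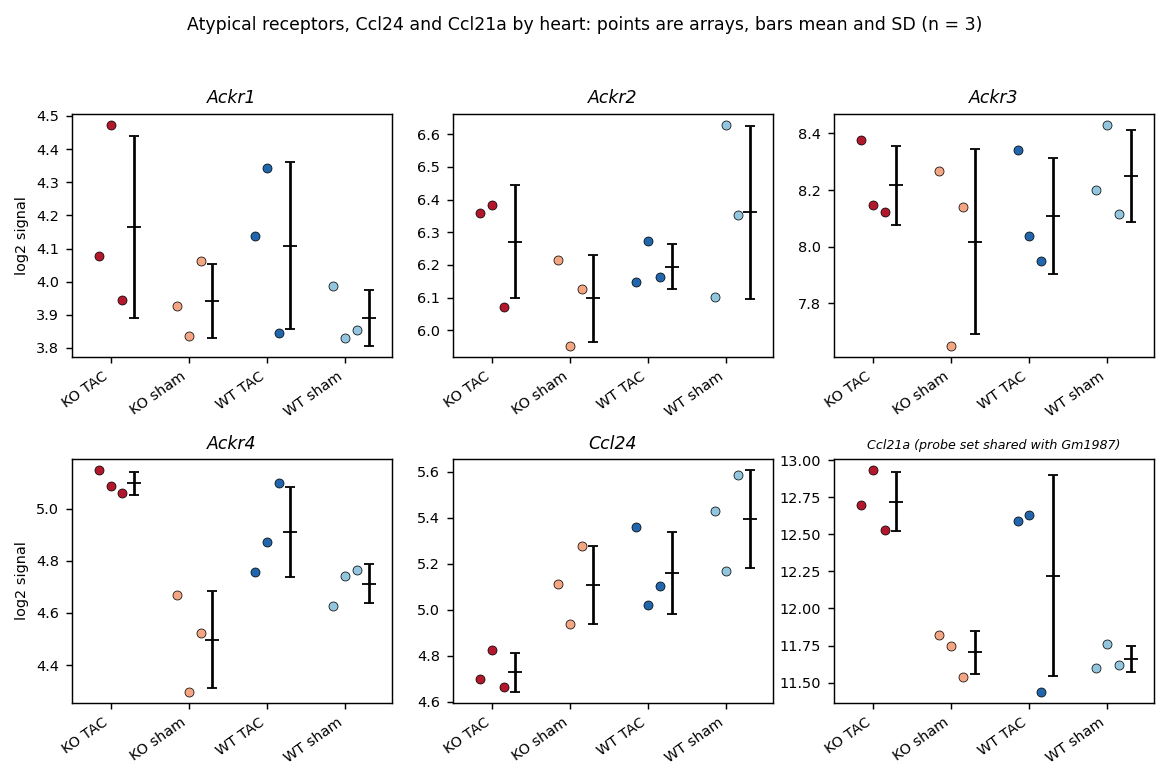
Log2 signal of the 4 atypical receptors, Ccl24 and Ccl21a by group, with a point for each of the 3 arrays and bars for mean and SD; each panel has its own vertical axis, which does not start at 0, and the Ccl21a probe set also carries Gm1987. Ackr4 reads 5.06 to 5.15 in knockout TAC hearts, above all knockout sham points, and Ccl24 reads 4.66 to 4.82 there, below all points of the other groups.

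Of the ligands of Ackr4, Ccl25 had a probe set of its own and differed by -0.05 ± 0.07 in knockout hearts (95% interval -0.20 to 0.10). Ccl19 was read on 4 shared probe sets, of which 0 were called in knockout hearts (0.14 to 0.38, adjusted p of 0.219 to 0.655). CCL21 guides cells through CCR7, and a probe set was shared by Ccl21a and Gm1987. It read 12.70, 12.93 and 12.53 in knockout TAC hearts, against 11.82, 11.75 and 11.54 in knockout sham hearts. In a fit of all probe sets this was a rise of 1.02 ± 0.26 (adjusted p = 0.0357). The same probe set read 12.59, 12.63 and 11.44 in wild type hearts after TAC, against 11.60, 11.76 and 11.62 after sham, and TAC replicate 3 lay below all sham arrays. That difference of 0.56 ± 0.26 was not called (adjusted p = 0.476). Other probe sets, which carry Ccl21b and Ccl21c among more symbols, rose by 0.99 or 1.00 in knockout hearts (adjusted p = 0.0104 or 0.0235). Their wild type differences of 0.59 or 0.47 were not called. The near-identical Ccl21 copies share sequence, so the gene of origin is uncertain, and the same holds for Ccl19-ps1, which rose by 0.37 ± 0.11 (adjusted p = 0.0413) in knockout hearts. Ccl19-ps1 read 5.90, 5.85 and 5.53 in knockout TAC hearts, against 5.40, 5.37 and 5.40 in knockout sham hearts. It lost its call in 12 of 23 alternative analyses, 8 of which left out 1 array, with adjusted p up to 0.148. Ccr7 itself read 6.55, 6.56 and 6.69 in knockout TAC hearts, against 6.71, 6.71 and 6.67 in knockout sham hearts, a difference of -0.10 ± 0.10 (95% interval -0.31 to 0.12).

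Ligands of CXCR3 and CXCR2, and Ccl5, were not called in knockout hearts. The ligands of CXCR3, which draw T cells and are induced by interferon, gave differences of 0.10 ± 0.28 for Cxcl9, 0.35 ± 0.16 for Cxcl10 and 0.12 ± 0.09 for Cxcl11. Cxcl9 read 7.16, 8.11 and 7.76 in knockout TAC hearts, against 7.30, 7.44 and 7.98 in knockout sham hearts, with full overlap. Cxcl10 read 3.99, 4.04 and 4.66 in knockout TAC hearts, against 3.91, 3.99 and 3.73 in knockout sham hearts, and its separation of the groups was narrow. Cxcr3 itself read 4.61, 4.47 and 4.76 in knockout TAC hearts, against 4.44, 4.56 and 4.67 in knockout sham hearts, a difference of 0.06 ± 0.11. Neutrophil chemokines that act through CXCR2 were likewise uncalled, with 0.10 ± 0.10 for Cxcl1, -0.03 ± 0.09 for Cxcl2 and 0.28 ± 0.12 for Cxcl5. Ccl5, which T cells and platelets release, read 5.09, 4.70 and 4.69 in knockout TAC hearts, against 4.31, 4.62 and 4.86 in knockout sham hearts, a difference of 0.23 ± 0.15. Apart from Cxcl9, these ligands and Cxcr3 had mean signals under the median of all genes tested (5.40). A missing call therefore says little about them.

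Ccl24, an eosinophil chemokine that macrophages make, differed downwards. It read 4.70, 4.82 and 4.66 in knockout TAC hearts, against 5.11, 4.94 and 5.28 in knockout sham hearts, a difference of -0.38 ± 0.13 that was not called (adjusted p = 0.0797). It was called lower with array weights (-0.41, adjusted p = 0.0384) and with Myl7, an atrial marker, as a covariate (-0.45, adjusted p = 0.0435). Ccl11, the related eotaxin, differed by -0.44 ± 0.21 (adjusted p = 0.22) and was the most negative of the family. The 45 members that were not called ranged from -0.44 to 0.76, the highest being Cxcl14 at 0.76 ± 0.34 (adjusted p = 0.204).

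Chemokine genes lie in groups along the chromosomes, and members of the larger groups did not all move alike in knockout hearts. Of all genes 6.97% were called higher and 5.57% lower there, so a group this small without a call is not set apart from other genes. In the chromosome 11 group that holds, in order, Ccl2, Ccl7, Ccl11, Ccl12, Ccl8 and Ccl1, 3 of 6 genes rose and the differences spanned -0.44 to 2.33, with the most negative one of the family (Ccl11) beside the largest (Ccl12). In the second chromosome 11 group, Ccl5, Ccl9, Ccl6, Ccl3 and Ccl4, 0 of 5 were called, with differences of -0.04 to 0.23. In the chromosome 5 group of Cxcl5, Cxcl3, Cxcl15, Cxcl1 and Cxcl2, 0 of 5 were called as well, with differences of -0.07 to 0.28. In the chromosome 9 receptor group Ccr9, Cxcr6, Xcr1, Ccr1, Ccr1l1, Ccr3 and Ccr2, 2 of 7 rose, Ccr1 and Ccr2. In the chromosome 8 group of Ccl22, Cx3cl1 and Ccl17, 1 of 3 rose (Cx3cl1), and all differences were positive, at 0.20 to 0.87.

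**Figure D4:**
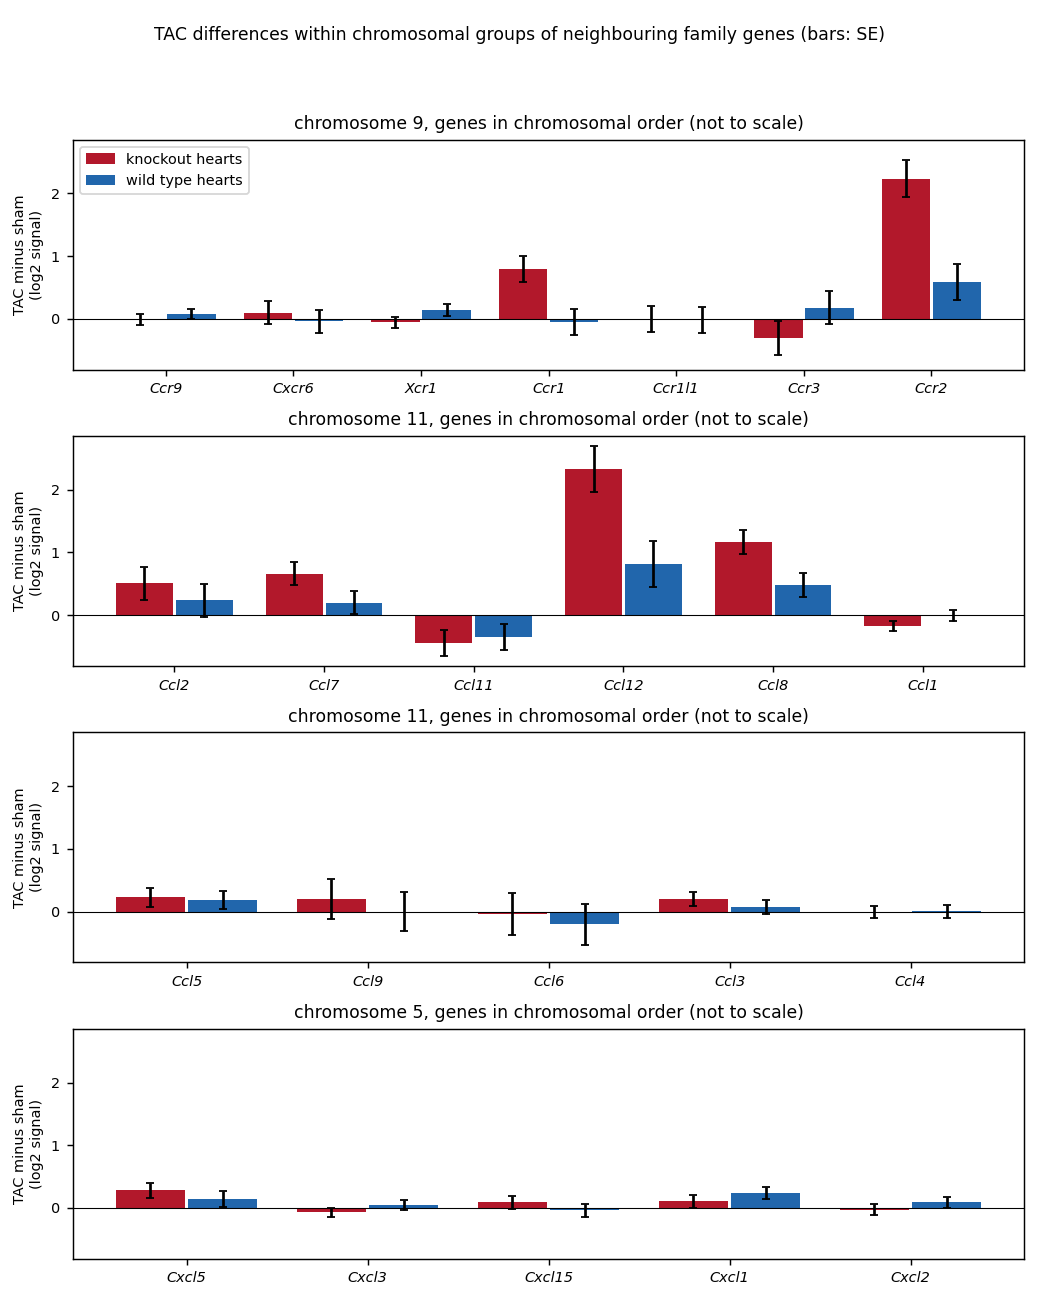
TAC minus sham in log2 signal, knockout hearts in red and wild type hearts in blue, for the 4 largest groups of neighbouring family genes in chromosomal order; bars are limma standard errors and distances are not to scale. Ccl12 and Ccl8 rise beside Ccl11 at -0.44 and Ccl1, and the second chromosome 11 group stays between -0.04 and 0.23 in knockout hearts.

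In wild type hearts no member was called after TAC, where 0.174% of all genes were called in either direction. At an unadjusted p under 0.05 stood 7 of 56 members, against 12.2% of all genes. The TAC arrays lay wholly above the sham arrays for 6 members (10.7%), against 8.97% of all genes, namely Ccl8, Cxcl1, Cxcl10, Cxcl11, Cxcl16 and Cxcr4. They lay wholly below them for Ccl28 alone (1.79%), against 7.02% of all genes. Ccl28, a mucosal chemokine, read 4.03, 4.10 and 3.99 in wild type TAC hearts, against 4.26, 4.28 and 4.40 in wild type sham hearts, a difference of -0.27 ± 0.10 (adjusted p = 0.314). Xcl1, which T and NK cells make, read 4.58, 4.28 and 4.45 in wild type TAC hearts, against 4.08, 4.0 and 4.31 in wild type sham hearts, a difference of 0.30 ± 0.12 (adjusted p = 0.335). Of the 10 protein-coding genes that rose in knockout hearts, 9 had positive wild type differences, from 0.20 for Ackr4 and Ccl7 to 0.82 for Ccl12, and Ccr1 was at -0.05. Wild type differences were positive for 38 of 56 members and 57% of all genes.

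**Figure D5:**
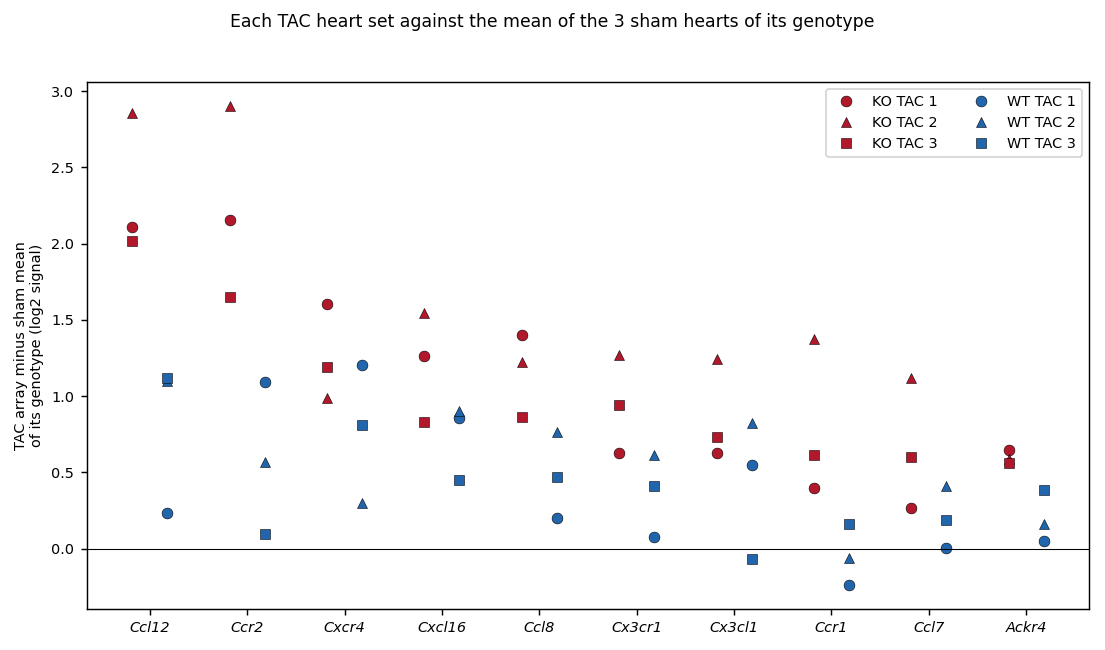
Each TAC array minus the mean of the 3 sham arrays of its genotype, in log2 signal, for the 10 protein-coding members that rose in knockout hearts; red marks are knockout and blue marks wild type arrays, with 1 shape per replicate. Knockout TAC replicate 2 is the highest of its group for 7 of the 10 genes. The genes were chosen by their calls in the knockout arrays, so the side of 0 on which the red marks lie is not a result.

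These 10 genes were chosen by their calls in the knockout arrays, so that their place above the knockout sham hearts, and a knockout difference larger than that of wild type hearts, follow in part from the choice. Over the 10 genes, the median difference from the sham mean was 0.96, 1.26 and 0.85 in the 3 knockout TAC hearts. Knockout TAC replicate 2 was the highest of its group for 7 of the 10 genes, and knockout TAC replicate 3 was the highest for 0. The 3 wild type TAC hearts lay above the wild type sham mean for 9 genes each, with medians of 0.22, 0.59 and 0.40.

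Knockout and wild type hearts were compared directly after TAC. No member was called, where 0.0109% of all genes were, and at an unadjusted p under 0.05 stood 9 of 56 members, against 14.4% of all genes. The knockout arrays lay wholly above the wild type arrays for 5 members (8.93%; Ccl12, Ccl8, Ccr1, Cx3cl1 and Cxcl16), against 7.83% of all genes, and wholly below for 4 (7.14%; Ccl24, Ccl27a, Ccr8 and Cxcl3), against 11.2%. Ccl8 came nearest to a call, at 6.16 ± 0.28 in knockout TAC hearts and 5.27 ± 0.28 in wild type TAC hearts (SD, n = 3 each), a difference of 0.88 ± 0.19 (adjusted p = 0.0688). Ccr1 differed by 0.75 ± 0.21 (adjusted p = 0.114), Ccr2 by 1.06 ± 0.29 (adjusted p = 0.119) and Cxcl16 by 0.60 ± 0.17 (adjusted p = 0.118). Among fits that left out 1 array, members were called in 2, namely Ccl8 without wild type TAC replicate 2 (1.02, adjusted p = 0.0257) and Cxcl16 without knockout TAC replicate 3 (0.80, adjusted p = 0.049). Calls over all genes rose in these fits as well, to 763 and 151 genes, against 3 as reported, so the gained calls are not particular to the family. Ccl24, by contrast, read lower in knockout hearts, by -0.43 ± 0.13 (adjusted p = 0.143), against 5.36, 5.02 and 5.10 in wild type TAC hearts.

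After sham operation no member was called between genotypes, and 0% of all genes were, with 0.216 as the smallest adjusted p of any gene. Only 2 members had an unadjusted p under 0.05, against 5.52% of all genes. Cxcr2, the neutrophil receptor, read 5.30, 5.31 and 5.27 in knockout sham hearts, against 5.37, 5.66 and 5.58 in wild type sham hearts, a difference of -0.24 ± 0.09. Ccl24, the other of these 2, read 5.11, 4.94 and 5.28 in knockout sham hearts, against 5.43, 5.17 and 5.58 in wild type sham hearts, with overlapping groups. The largest difference in size was that of the B cell chemokine Cxcl13, at 5.64, 6.89 and 5.98 in knockout sham hearts, against 7.90, 7.41 and 6.39 in wild type sham hearts. It was -1.07 ± 0.53, and its arrays spread widely within every group. The knockout arrays lay wholly above for 2 members (3.57%; Ccl25 and Ccr7), against 6.41% of all genes, and wholly below for 3 (5.36%; Ccl19-ps1, Ccr2 and Cxcr2), against 5.91%.

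Ccr2 was thus read at 5.29 ± 0.14 in knockout sham hearts and 5.88 ± 0.20 in wild type sham hearts (SD, n = 3 each), a difference of -0.59 ± 0.29 that was not called. After TAC the order was turned, at 7.53 ± 0.63 in knockout hearts and 6.47 ± 0.50 in wild type hearts. The TAC difference in knockout hearts minus that in wild type hearts was 1.65 ± 0.42 for Ccr2 (adjusted p = 0.261), 1.51 ± 0.51 for Ccl12 (adjusted p = 0.325), 0.84 ± 0.29 for Ccr1 (adjusted p = 0.334) and 0.40 ± 0.15 for Ackr4 (adjusted p = 0.365). No member passed this interaction test, and 0% of all genes did. At an unadjusted p under 0.05 stood 7 of 56 members, against 10.9% of all genes.

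With the TAC difference averaged over both genotypes, 9 of 56 members (16.1%) were called higher, where 7.35% of all genes were, and 1 (1.79%) lower, where 6% were. The 9 were Ccl12 (1.57 ± 0.26), Ccr2 (1.41 ± 0.21), Cxcr4 (1.02 ± 0.20), Cxcl16 (0.97 ± 0.12), Ccl8 (0.82 ± 0.14), Cx3cr1 (0.66 ± 0.14), Cx3cl1 (0.65 ± 0.15), Ccl7 (0.43 ± 0.13) and Ackr4 (0.40 ± 0.08). All 6 TAC arrays lay above all 6 sham arrays for Cxcl16 and Cxcr4 (3.57% of members), against 3% of all genes. Ccl24 was the member called lower, at -0.31 ± 0.09 (adjusted p = 0.0453). That call was lost when any of 9 arrays was left out singly, with adjusted p of up to 0.112 without wild type TAC replicate 2. The call of Ccl7 was lost likewise for 10 arrays, with adjusted p of up to 0.116 without that same array.

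Other genes of the pathway also changed in knockout hearts, where 6.97% of all genes were called higher and 5.57% lower. Of 17 genes of chemokine receptor signalling measured, 9 rose and 1 fell, with a median difference of 0.28. Elmo1, which links the receptors to cell movement through Rac, rose by 0.89 ± 0.09, and the G protein subunits Gnb1 and Gnai2 rose by 0.62 ± 0.08 and 0.59 ± 0.09. The gene that fell was Rgs2, a brake on G protein signalling, by 1.08 ± 0.32 on the log2 scale. Of 15 leukocyte adhesion genes 10 rose and 0 fell, including the integrin chains Itga4 (0.49 ± 0.08) and Itgb2 (0.67 ± 0.12) and the endothelial junction protein Pecam1 (0.47 ± 0.09). Of 16 cytokines, cytokine receptors and regulators that induce or restrain chemokines, 4 rose and 0 fell. Among the 4 were Il6 at 1.40 ± 0.16, the interleukin-1 receptor Il1r1 at 1.09 ± 0.16 and the interferon factor Irf7 at 1.00 ± 0.16. Il6 read 4.80, 5.03 and 5.39 in knockout TAC hearts, against 3.74, 3.56 and 3.71 in knockout sham hearts. Of 9 other genes of the chemokine system, such as Pf4 and Ppbp, 1 rose, the chemerin receptor Cmklr1 (0.45 ± 0.12).

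Markers of cell types changed in the same comparison, with the same 6.97% and 5.57% of all genes called. Of 13 monocyte and macrophage markers 8 rose and 1 (Timd4, of resident macrophages) fell, and all 13 had a mean signal above the median gene. Their mean log2 signal was 9.48 to 10.10 in knockout TAC hearts and 8.98 to 9.33 in knockout sham hearts, against 9.29 to 9.57 in wild type TAC hearts and 8.99 to 9.33 in wild type sham hearts. The macrophage genes Lyz2, Cd68 and C1qa rose by 1.21 ± 0.20, 0.96 ± 0.16 and 1.14 ± 0.20 in knockout hearts. Not called were Cd163 and Lyve1, which read lower in knockout TAC than in knockout sham hearts (means of 8.64 against 8.88 and 10.5 against 10.8). Mertk (8.33 against 8.14) and Ly6c2 (14.93 against 14.89) were not called either. Of 9 fibroblast markers 8 rose, with a mean of 12.11 to 12.46 in knockout TAC hearts, against 10.08 to 10.25 in knockout sham hearts. The fibroblast mean was 10.53 to 11.81 in wild type TAC hearts, against 10.11 to 10.33 in wild type sham hearts. Of 8 cardiomyocyte markers 3 fell and 0 rose. Of 10 neutrophil markers 1 rose (Csf3r, 0.45 ± 0.09), of 4 B cell markers 1 rose (Ighm, 0.80 ± 0.22), and 0 of 11 T and NK cell markers and 0 of 7 dendritic cell markers were called. All 11 T and NK cell markers lay under the median gene, with means of 4.39 to 4.57 in knockout TAC hearts and 4.36 to 4.41 in knockout sham hearts. Of 8 endothelial markers 2 rose, of 6 lymphatic endothelial markers 2 rose and 1 (Prox1) fell, of 7 pericyte and smooth muscle markers 1 rose and 1 fell, and of 6 atrial markers 0 were called. The atrial mean spread widely within groups, at 10.10 to 12.84 in knockout TAC and 10.17 to 12.96 in knockout sham hearts. It was 9.82 to 12.27 in wild type TAC and 10.32 to 12.96 in wild type sham hearts. The missing calls thus do not show that atrial levels were alike. No gene of these lists was called in wild type hearts, between genotypes or in the interaction. The part of cell numbers in the chemokine differences was not tested, and in whole heart RNA more or fewer cells of a type cannot be told apart from more or less RNA per cell.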

How the data were processed

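Heart RNA of 12 mice (4 groups of 3) was labelled from 250 ng of total RNA per array, per the labels' protocols. The deposited values are log2 signals made by the authors with Affymetrix Expression Console, per the submitters' processing notes, whose version, normalization and summarization are not given in the sources used here. The log2 scale was read from the values, which run from 1.27 to 19.93. Control probe sets (6732 of 65527) were left out. Of 58795 others, 27816 had 1 gene symbol, 1384 several and 29595 none in the platform annotation, in which 1298 symbols were updated through their Entrez identifiers. This gave 27533 genes, 201 of them with more than 1 probe set, of which the brightest was used. No gene was left out for low signal in the analysis as reported.

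A linear model with a mean for each of the 4 groups was fitted to the 12 arrays in limma 3.58.1 (R 4.3.3), with variances moderated by eBayes at its defaults (3.28 prior and 8 residual degrees of freedom). Tests were 2-sided, p-values were adjusted by Benjamini-Hochberg across the 27533 genes, and calls were made below an adjusted p of 0.05. The ± of a difference is limma's standard error, that of a level the SD of 3 arrays, and the number of arrays limits the precision. Shared probe sets were read in a fit of all probe sets. The procedure was tested on simulated data. Alternatives were quantile normalization, median centring, leaving out dim genes, all probe sets, the mean over probe sets, trended variance, array weights, only the groups compared, the atrial marker Myl7 as a covariate, a replicate block and each array left out, and, chosen after seeing the data, synonyms kept as separate symbols.

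Replicate numbers are shared by the groups. Over 18 same-numbered pairs of arrays, deviations from group means correlated at -0.07 to 0.32, and 10 pairs were over 0.1. All 3 knockout TAC and sham pairs were (0.262, 0.146 and 0.175), so that comparison was also read with the numbers as a block, with 11 members called as without it. The labels give no source for the pairing.

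The members and the lists of pathway and marker genes were chosen with earlier results of these data known. Given by array are members called in any comparison, the 4 with the smallest p per comparison and fixed ligand and receptor pairs, and from other lists at most the 3 genes with the smallest p. Other genes named beside counts or ranges were chosen after their values were seen. Promoter windows, from RefSeq (GRCm38.p6), and gene order, from the RefSeq gene table, were joined by symbol. The build behind the array annotation was not given.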

Additional observations from a re-analysis of the deposited data

How the results depend on the processing

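For TAC in knockout hearts the alternatives called 8 to 12 members against 11 as reported, and leaving out 1 array gave 7 to 11, the lowest without knockout sham replicate 2. The 8 came from leaving out dim genes, where only 23 members were tested, so called members such as Ackr4 and Ccl8 were absent rather than lost. That fit called 4067 genes, against 3454 as reported. Ccl12, Ccr2, Cxcl16, Ccl8, Cx3cr1 and Ackr4 were called in every alternative in which they were tested. With only the groups compared, Ccr1 (adjusted p = 0.0837) and Ccl7 (0.0947) were not called. Ccl7 was not called either with Myl7 as a covariate (adjusted p = 0.078). In wild type hearts 0 members were called as reported and 1, Cxcl16, with array weights (adjusted p = 0.0467) or with the replicate block (adjusted p = 0.0468), and leaving out 1 array gave 0 to 1. Between genotypes after TAC, 0 were called as reported and 2 with the replicate block, Ccl8 (adjusted p = 0.0499) and Ccr2 (adjusted p = 0.0462), and leaving out 1 array gave 0 to 1. Whether the numbers pair the samples in these comparisons is not known. Same-numbered pairs correlated at 0.106, -0.015 and 0.188 for wild type TAC and sham hearts. They correlated at 0.214, 0.084 and 0.098 for knockout and wild type TAC hearts. In both, the best match had the same number for replicates 1 and 3 and not for 2. The block changed no other count of members. After sham and for the interaction 0 members were called in every alternative. Averaged over genotypes 7 to 13 members were called, against 10 as reported, the 7 again among the 23 members kept when dim genes were left out. With Myl7 as a covariate Cx3cl1 (adjusted p = 0.0505) and Ccl7 (0.15) were not called there. Counts over all genes moved more: for genotype after TAC 3 genes were called as reported, 564 with the replicate block and 597 when dim genes were left out, which kept 23 members. For TAC in wild type hearts 48 genes were called as reported, 269 with the replicate block and 0 with Myl7 as a covariate. Of 156 results for single members, 0 reversed past the threshold in any alternative. Differences that passed in neither fit changed sign 92 times, while calls were lost 51 times and gained 13 times. The cause of lost and gained calls was not tested.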
